A study of Mus musculus with 3 samples.

Results

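Lung tissue of mice given airborne particles was compared with lung tissue of control mice, gene by gene, to describe the differences outside the usual inflammatory markers. The comparison took in the 13693 genes, of 23183 with a value, that reached 1 FPKM (sequenced fragments per kilobase of transcript, scaled to the mapped total) in the PM10 library or in the control library. Each group was 1 library, so every value below is a single measurement, no difference has a replicate check and no test was possible.

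RNA sequencing was done on lungs of female BALB/c mice, whose age one label gives as 10 weeks and another as 5 to 6 weeks. The control mice carry the label control, with no vehicle named. The PM10 mice were given ERM-CZ120, a certified reference dust. Each of 4 intranasal doses, spread over 2 weeks, held 100 or 200 µg in 20 µL of saline, and the labels do not say which dose was sequenced. The last library, OVA+PM10, came from mice given the same particles that were also sensitised and challenged with ovalbumin (OVA), and its values stand beside those of the named genes. Each group had 5 mice, and whether a library pooled them is not stated.

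Inhaled dust is cleared in the alveoli mainly by macrophages, which engulf particles together with surfactant and cell debris and break the digestible part down in acidified lysosomes. Particles that resist digestion stay in these cells, and macrophages loaded with lipid from surfactant and dying cells are called foam cells. The alveolar wall around them is built of flat type 1 cells, surfactant-making type 2 cells, capillaries and a fibroblast matrix of collagen and elastic fibres.

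Differences are given as the log2 ratio of FPKM + 1, PM10 over control, and a gene is counted as higher or lower at 2-fold, a log2 ratio of 1 or more or of -1 or less. Of all genes compared, 1869 were higher, or 13.6%, and 1907 were lower, or 13.9%, with a median log2 ratio of 0.02. Directions are relative to this median gene. Were both libraries brought to 1 common FPKM total, that would shift these ratios by a median of -1.11 (-1.24 without the added 1 FPKM). On that scale 22 of the 27 list medians above 0 fall below 0, and the split becomes 251 higher and 7079 lower genes. Scaling to the same upper quartile shifts ratios by a median of -0.20 (-0.23 without the added 1 FPKM).

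The libraries had about 20.5 M (control), 13.1 M (PM10) and 15.5 M reads (OVA+PM10; M, 1000000 reads), as estimated from the smallest steps between low values. The lung label fitted the markers, with Sftpc at 22645 and 56646 FPKM, Scgb1a1 at 42979 and 50391 FPKM and Ager at 1228 and 1777 FPKM in the control and PM10 libraries. Markers of squamous epithelium, muscle and fat were present in all libraries and highest in the control library. Whether this RNA came from within the lung or from tissue beside it was not tested. The summed FPKM of 30 squamous epithelium markers was 7633 (control), 46.1 (PM10) and 54.5 (OVA+PM10), that of 18 skeletal muscle markers 5597, 43.2 and 59.6, that of 18 cardiac muscle markers 1404, 204 and 403, and that of 16 adipose markers 495, 103 and 218, while red cell markers stood at 11151, 52949 and 21105. With all these markers and the ribosomal RNA precursor Rn45s left out, scaling to the same sum gave 256 higher and 7056 lower genes.

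The ratio also ran with transcript length. Among 10 classes of equal size ordered by the longest annotated transcript, the class with the shortest transcripts had 54.4% of genes higher and 11.6% lower, and the class with the longest 1.84% higher and 36.7% lower. Each list is therefore also described after subtraction of a running median over length, which left 1045 of 13607 genes higher, or 7.68%, and 1525 lower, or 11.2%. The PM10 library had the fewest reads, and the part of read depth in this trend was not tested. The length used for a gene is that of its longest annotated transcript, and whether this is the transcript expressed was not tested.

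**Figure D1:**
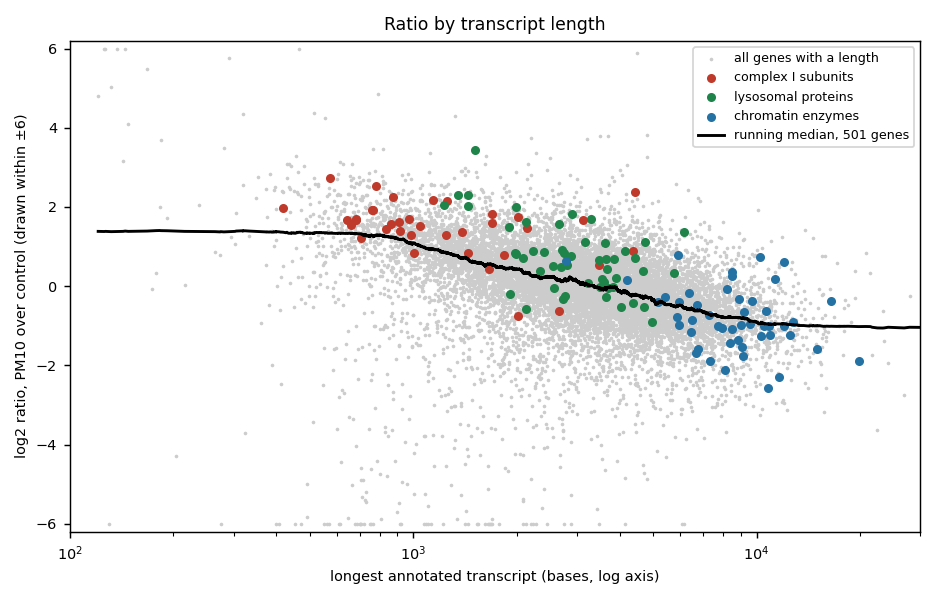
Log2 ratio of FPKM + 1, PM10 over control (vertical axis, drawn within ±6), against the longest annotated transcript in bases (log axis), 1 point per gene. The 36 complex I subunits (median length 1026 bases) lie high on the falling running median, the 48 chromatin enzymes (median length 8683 bases) lie low on it, and the 52 lysosomal proteins lie mostly above it.

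**Figure D2:**
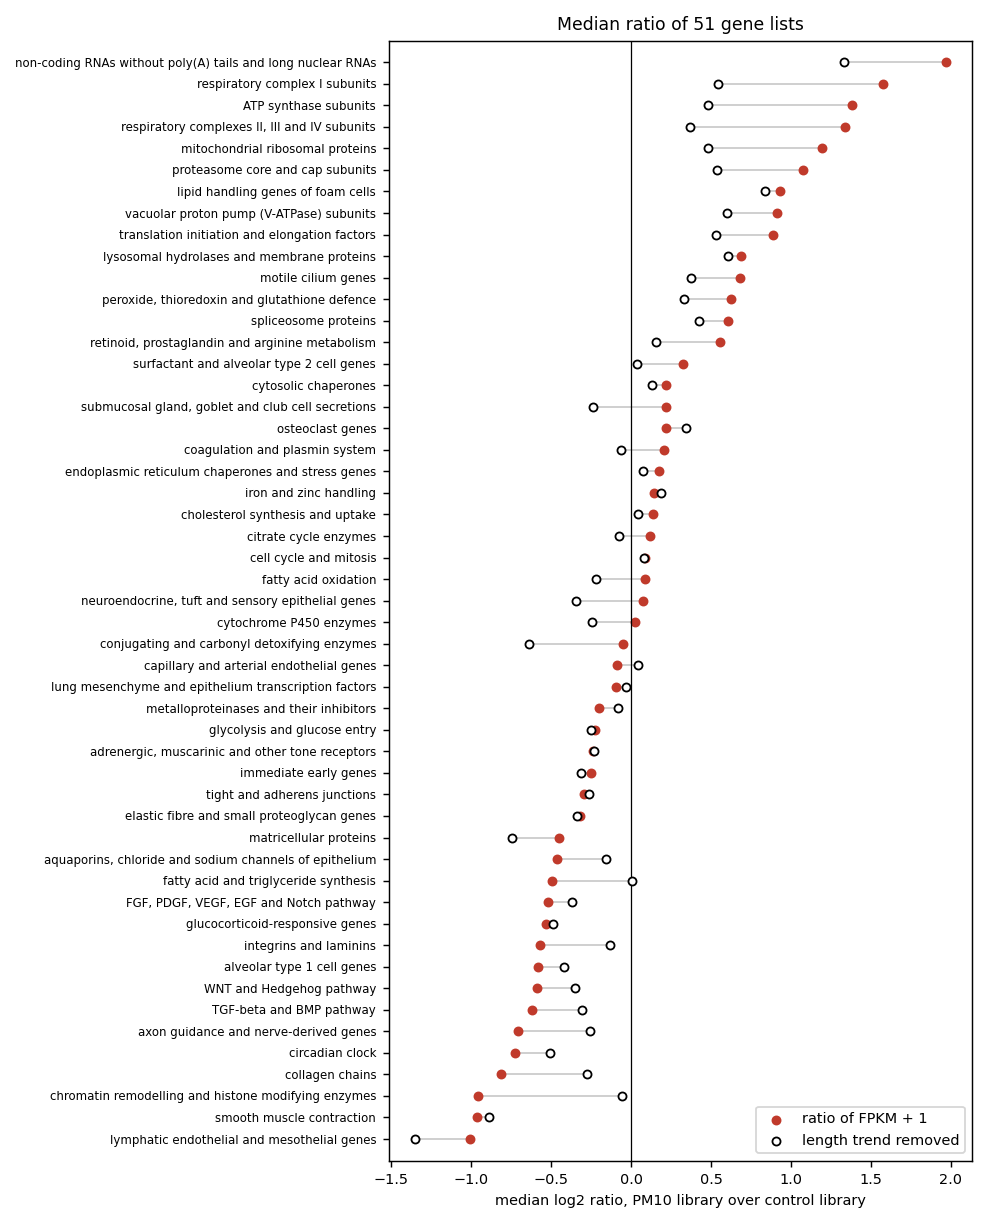
Median log2 ratio of each of the 51 gene lists, PM10 over control, as measured (filled) and with the running median over length removed (open). Lists of short transcripts such as complex I (1.57 and 0.54) move far towards 0, whereas foam cell lipid genes (0.93 and 0.84), smooth muscle genes (-0.96 and -0.89) and lymphatic and mesothelial genes (-1.01 and -1.35) move little or away from 0.

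Genes of the lysosome were higher as a group. Of 52 lysosomal hydrolases and membrane proteins compared, 15 were higher and none was lower, against 13.6% and 13.9% of all genes, with a median log2 ratio of 0.69, and after removal of the length trend 16 were higher and none lower (median 0.60). Ctsk, which encodes cathepsin K, a protease that cuts collagen and elastin (chromosome 3, 95499256 to 95509362, GRCm38), stood at 18.1 (control), 207 (PM10) and 101 FPKM (OVA+PM10), a log2 ratio of 3.45 for PM10 over control. Cathepsin S (Ctss), the protease that trims the invariant chain for antigen presentation, had 182, 906 and 577 FPKM in the same order (log2 ratio 2.31). The exopeptidase gene Ctsz followed with 63.8, 317 and 205 FPKM (2.29). In all of these the PM10 library was the highest and the OVA+PM10 library lay between. The gene of the main aspartic protease, Ctsd, reached 1220 FPKM in the PM10 library against 395 FPKM (1.62), and Npc2, which hands cholesterol out of the lysosome, 707 against 219 FPKM (1.69). Hexa, which encodes a chain of an enzyme that trims gangliosides, stood at 203 against 50.2 FPKM. The membrane proteins Cd63 (636 against 179 FPKM) and Cd68 (164 against 38.6 FPKM) were higher too. Cd68 is also a macrophage marker, and the alveolar macrophage markers had 7 of 19 members higher and 1 lower, with a summed FPKM of 804 (control), 2049 (PM10) and 3370 (OVA+PM10). Chil3, which has a near-identical copy, alone made 93.4, 641 and 2106 FPKM of these sums. The markers also include Ctsk and Atp6v0d2, so they are not separate from the genes described here. In bulk tissue, more cells of a type and more RNA per cell cannot be told apart.

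The proton pump that acidifies lysosomes, the V-ATPase, had 8 of 21 subunits higher and none lower (median 0.91), or 6 higher and none lower with the length trend removed (median 0.60). Atp6v0d2, the subunit isoform of osteoclasts and macrophages (chromosome 4, 19876841 to 19922605), stood at 18.9 (control), 107 (PM10) and 37.2 FPKM (OVA+PM10) (log2 ratio 2.44). The membrane subunit Atp6v0e had 119, 392 and 187 FPKM (1.71), and Tcirg1, the other isoform used by osteoclasts, 10.2, 27.2 and 27.8 FPKM (1.33). For Tcirg1 both particle libraries lay at one level, above the control library. The pore subunit Atp6v0c is a case where copies matter. The gene had 158 and 92.5 FPKM in the control and PM10 libraries, its processed copy Atp6v0c-ps2 0.003 and 206 FPKM, and the sum of the pair 158.5 and 299 FPKM (0.91). The direction of either gene alone is therefore uncertain.

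Many lysosomal promoters carry the E-box CACGTG, which is read by the TFEB and TFE3 factors, in the longer form TCACGTGA. These letters, searched on both strands (both are palindromes, and the longer form contains the shorter), were present in 7.15% and 0.974% of 32851 RefSeq promoters of 300 bases (250 before the transcript start and 50 after it). Of the genes compared that had a promoter there, 11.3% and 2.12% held them, against 13 and 4 of 43 lysosomal genes and 4 and 3 of 15 V-ATPase genes. Of the lysosomal genes, 3 of 13 with the short form and 10 of 30 without it were higher, and of the V-ATPase genes 2 of 4 and 3 of 11. The promoters below hold the longer form, with CACGTG in capitals, and show that a member with it could be higher (Ctsd, Atp6v0e) or not (Atp6v1a, 44.5 (control) and 33.5 FPKM (PM10)). They come from RefSeq on GRCm38.p6, at chr7:142387778-142388077 (minus strand), chr17:26676146-26676445 (plus) and chr16:44139210-44139509 (minus). The motif begins 245 and 98 bases before the start in Ctsd (the longer form at 98 only) and 131 bases before it in Atp6v1a, and lies just after the start in Atp6v0e.
Ctsd: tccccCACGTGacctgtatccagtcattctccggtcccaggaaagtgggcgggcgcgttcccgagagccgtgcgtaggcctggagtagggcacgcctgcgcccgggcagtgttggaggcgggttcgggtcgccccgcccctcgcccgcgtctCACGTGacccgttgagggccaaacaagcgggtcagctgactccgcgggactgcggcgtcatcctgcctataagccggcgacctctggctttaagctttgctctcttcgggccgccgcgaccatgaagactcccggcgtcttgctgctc
Atp6v0e: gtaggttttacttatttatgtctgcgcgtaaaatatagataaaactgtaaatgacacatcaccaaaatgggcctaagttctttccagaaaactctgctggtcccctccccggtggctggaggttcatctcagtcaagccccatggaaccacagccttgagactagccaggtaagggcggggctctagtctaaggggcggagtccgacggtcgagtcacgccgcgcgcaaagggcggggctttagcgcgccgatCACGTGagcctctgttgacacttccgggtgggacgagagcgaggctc
Atp6v1a: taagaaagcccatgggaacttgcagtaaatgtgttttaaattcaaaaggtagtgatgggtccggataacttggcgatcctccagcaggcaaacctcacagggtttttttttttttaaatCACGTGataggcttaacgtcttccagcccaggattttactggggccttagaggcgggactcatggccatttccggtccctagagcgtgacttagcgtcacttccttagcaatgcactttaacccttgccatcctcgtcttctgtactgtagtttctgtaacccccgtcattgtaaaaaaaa

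Lipid handling genes of foam cells had 12 of 28 members higher and 1 lower (median 0.93), and the same counts with the length trend removed (median 0.84). Gpnmb, a glycoprotein of lipid-laden and phagocytic macrophages (chromosome 6, 49036546 to 49070929), stood at 4.54 (control), 76.3 (PM10) and 17.3 FPKM (OVA+PM10) (log2 ratio 3.80). The lipid receptor Trem2 had 3.05, 56.5 and 35.8 FPKM (3.83). Ch25h, the enzyme that makes 25-hydroxycholesterol, had 2.80, 27.6 and 17.6 FPKM (2.91). For these 3 genes both particle libraries exceeded the control library. Plin2, the coat protein of lipid droplets, had 88.6, 337 and 101 FPKM (1.91), and Nr1h3, the sterol-sensing receptor LXR-alpha, 23.3, 62.4 and 22.3 FPKM (1.38), so that for both the OVA+PM10 library stayed near the control library. Galectin-3 (Lgals3), which gathers on damaged lysosomes, had 104, 835 and 407 FPKM (2.99), and the secreted phosphoprotein Spp1 had 35.2, 141 and 57.7 FPKM (1.98). The synaptogyrin gene Syngr1 stood at 34.1 FPKM in the PM10 library against 6.01 FPKM (2.32). The fatty acid binding protein Fabp4 was the single lower member, at 40.9 against 118 FPKM (-1.5). Adipocytes also express Fabp4, and the adipose markers were lower in the PM10 library (10 of 13). The part of adipose tissue in this value was not tested.

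**Figure D3:**
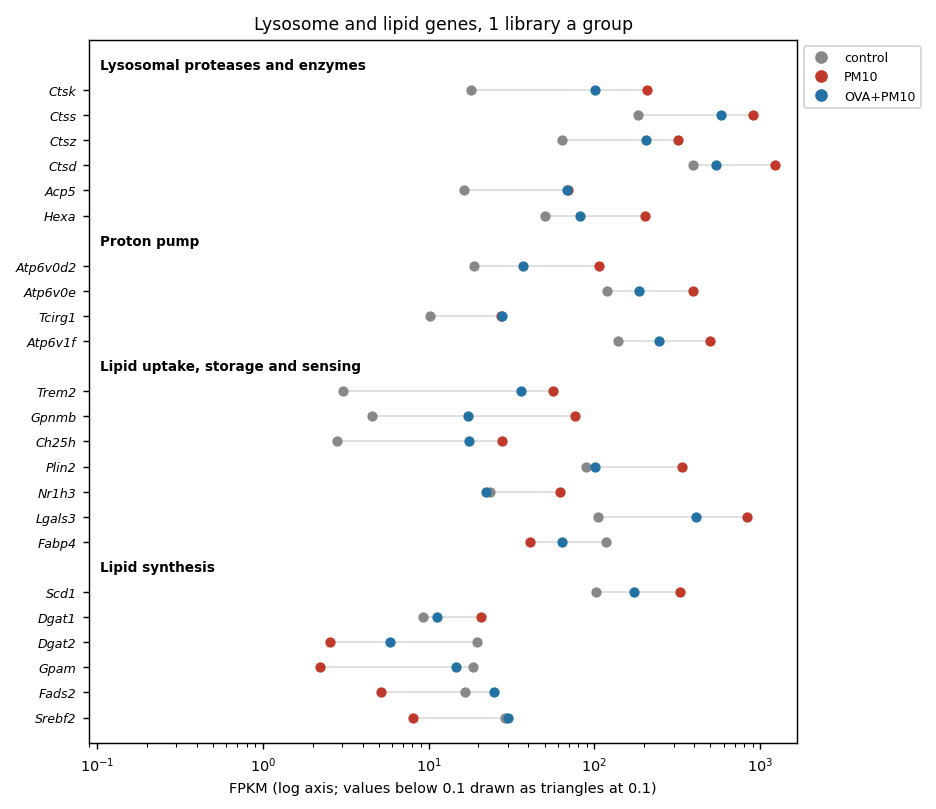
FPKM (log axis) of lysosome, proton pump and lipid genes in each of the 3 libraries, 1 point per library. The PM10 library is the highest for cathepsin genes, Atp6v0d2, Gpnmb, Plin2 and Scd1, and the lowest for Dgat2, Gpam, Fads2 and Srebf2.

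Lipid synthesis genes did not move in one direction. Of 20 genes of fatty acid and triglyceride synthesis 2 were higher and 4 lower (median -0.49, length-removed 0.00), and of 27 cholesterol genes 1 was higher and 2 lower. Scd1, the desaturase that makes monounsaturated fatty acids, stood at 102 (control) and 327 FPKM (PM10) (log2 ratio 1.67), and Dgat1, which completes triglycerides, 9.24 and 20.6 FPKM (1.08). In contrast the partner enzyme Dgat2 (19.5 and 2.56 FPKM, -2.53), the first acyltransferase of the pathway Gpam (18.4 and 2.21 FPKM, -2.60), the desaturase Fads2 (16.6 and 5.18 FPKM, -1.51) and the lipogenic factor Thrsp (21.6 and 5.16 FPKM, -1.88) were lower. Srebf2, the master regulator of cholesterol synthesis, stood at 28.8 (control), 8.06 (PM10) and 30.0 FPKM (OVA+PM10) (-1.72). Dgat2, Gpam and Thrsp are abundant in fat, whose markers were lower in the PM10 library as well. The part of fat in these values, and in that of Srebf2, was not tested.

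Osteoclast genes had 5 of 16 members higher and 1 lower (median 0.22). The higher ones were Ctsk, Atp6v0d2, Tcirg1, the tartrate-resistant phosphatase Acp5 (16.4, 69.5 and 68.7 FPKM in control, PM10 and OVA+PM10, log2 ratio 2.02) and the fusion protein gene Dcstamp (0.087, 1.70 and 0.853 FPKM). The transcription factor Nfatc1, which drives osteoclast formation, had 9.78 and 6.08 FPKM (-0.60). Car2, also on the list, stayed within 2-fold (37.9 and 69.2 FPKM, 0.85), as did Dcstamp with the length trend removed (0.88). Ctsk, Acp5, Atp6v0d2 and Tcirg1 were thus higher, and Nfatc1 was not. Ctsk and Acp5 are also on the lysosomal list, and Atp6v0d2 and Tcirg1 on the V-ATPase list. They are therefore not separate from the genes counted there.

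Iron handling genes lay on both sides of the median gene. Of 30 iron and zinc genes 7 were higher and 2 lower (median 0.14), and after removal of the length trend 3 were higher and 5 lower. Slc11a1, the phagosomal metal exporter NRAMP1 (chromosome 1, 74375195 to 74386062), stood at 3.89 (control), 18.9 (PM10) and 11.6 FPKM (OVA+PM10) (log2 ratio 2.03, or 1.90 with the length trend removed). The ferritin chains that store iron, Fth1 (2287, 7659 and 3173 FPKM, 1.74, or 1.33 with the length trend removed) and Ftl1 (2007, 7529 and 5034 FPKM, 1.91, or 0.81), were higher, with the reservation that both have many processed copies in the genome. Blvra and Blvrb, which reduce biliverdin, were also higher (47.6 against 18.0 FPKM and 83.8 against 30.4 FPKM), with length-removed ratios of 0.72 and 0.82. The reductase of the transferrin cycle, Steap3, was lower (4.05 against 14.5 FPKM, -1.62), and the heme oxygenase gene Hmox1, at 22.0 and 31.1 FPKM, stayed within 2-fold. Of the secreted iron-binding proteins on the list, Lcn2 was higher (106, 808 and 679 FPKM, 2.92, or 2.20) and Ltf lower (41.2, 9.86 and 112 FPKM, -1.96, or -2.10). The red cell markers summed to more in the PM10 library, and the part of retained blood in the heme and iron values was not tested.

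Coagulation genes had 6 of 28 members higher and 4 lower (median 0.21), or 2 and 3 with the length trend removed (median -0.06). F10, which encodes coagulation factor X, stood at 2.43 (control), 31.3 (PM10) and 20.9 FPKM (OVA+PM10) (log2 ratio 3.23, or 3.01 with the length trend removed). Its activator F7, factor VII, had 7.05, 20.7 and 16.2 FPKM (1.43, or 0.99 and thus within 2-fold with the length trend removed). Tissue factor itself, F3, had 23.8, 9.04 and 31.7 FPKM (-1.30), and the fibrin-crosslinking factor gene F13a1 12.4, 3.02 and 6.11 FPKM (-1.74). As measured, factors VII and X were thus higher in both particle libraries than in the control library, while the membrane receptor that starts the cascade was lower in the PM10 library and not in the OVA+PM10 library. The platelet chemokine Pf4 was at 93.7 against 30.4 FPKM, a ratio of 1.59 that came to 0.26 with the length trend removed.

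More than 1 in 2 nuclear genes of each part of the respiratory chain were higher as measured, and far fewer with the length trend removed. Of 36 complex I subunits 28 were higher and none lower (median 1.57), of 31 subunits of complexes II, III and IV 20 and none (median 1.34), of 18 ATP synthase genes 13 and none (median 1.38), and of 76 mitochondrial ribosomal proteins 52 and none (median 1.20). With the length trend removed these counts became 12 and 1, 4 and 3, 4 and none, and 23 and none, with medians of 0.54, 0.37, 0.48 and 0.48. Ndufb7, a complex I subunit, stood at 193 (control), 1007 (PM10) and 424 FPKM (OVA+PM10) (log2 ratio 2.38, or 2.58 with the length trend removed). The ATP synthase subunit Atp5l had 366, 1967 and 735 FPKM (2.42, or 3.0). For Cox7c, a small subunit of cytochrome oxidase, the ratio of 2.18 became 0.87. The longest annotated transcripts used for these 3 genes had 4435 (Ndufb7), 6310 (Atp5l) and 709 bases (Cox7c). The contrast between the genes after removal of the trend rests on these lengths, and whether they are those of the expressed transcripts was not tested. The citrate cycle, which feeds the chain and whose transcripts are longer, had none of 20 enzymes higher or lower (median 0.12), from Pcx at 17.2 against 10.1 FPKM (0.71) to Ogdh at 21.0 against 36.7 FPKM (-0.78). Fatty acid oxidation had 1 of 24 members higher and 2 lower (median 0.08), among them the uncoupling protein Ucp2 (457, 169 and 535 FPKM, -1.43). As measured, subunits of the chain were thus often past 2-fold, and enzymes of the citrate cycle were not. With the length trend removed the contrast was much smaller, as far fewer subunits were past 2-fold and again none of the cycle enzymes (median -0.08).

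In glycolysis 1 of 28 genes was higher and 7 were lower (median -0.23). The lowest were the muscle forms Pgam2 (78.1 and 1.85 FPKM in the control and PM10 libraries), Eno3 (193 and 9.03 FPKM), Pfkm (37.4 and 6.04 FPKM) and the insulin-regulated transporter Slc2a4 (7.99 and 0.806 FPKM). The skeletal muscle markers were lower too, all 18 of them. Their part in these values was not tested. Gapdh had 587, 508 and 657 FPKM.

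Machinery for making and removing proteins followed the same course as the respiratory chain. Of 33 proteasome subunits 19 were higher and none lower (median 1.08), of 36 translation factors 16 and none (median 0.89), and of 47 spliceosome proteins 18 and 3 (median 0.61). With the length trend removed, 3 proteasome subunits, 10 translation factors and 13 spliceosome proteins were higher, with medians of 0.54, 0.53 and 0.42. The elongation factor Eef1b2 stood at 171 (control) and 685 FPKM (PM10) (log2 ratio 2.00, or 1.54 with the length trend removed). Within the spliceosome the small ring proteins and the large scaffold went apart: Snrpe had 101 and 674 FPKM (2.73) and Lsm7 63.2 and 376 FPKM (2.55), whereas Prpf8, the largest protein of the machine, had 34.9 and 9.37 FPKM (-1.79, or -1.07 with the length trend removed). Chromatin enzymes mirrored this, with none of 48 higher and 20 lower (median -0.96), but 6 higher and 5 lower with the length trend removed (median -0.05). The acetyltransferase gene Crebbp remained lower by that measure, at 9.82 and 0.809 FPKM (-2.58, or -1.62), as did the methyltransferase Ash1l, at 10.0 and 1.25 FPKM (-2.30, or -1.34).

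Among chaperones of the cytosol and mitochondria 6 of 37 were higher and 3 lower (median 0.22), or 5 and 5 with the length trend removed (median 0.13). The mitochondrial co-chaperone Hspe1 had 113 and 578 FPKM (log2 ratio 2.34), and the constitutive Hspa8 888 and 1826 FPKM (1.04). The 3 members lower as measured were small heat shock proteins of muscle, Hspb6 (49.1 and 1.64 FPKM), Hspb7 (15.3 and 1.17 FPKM) and Hspb3 (2.60 FPKM and listed at 0). In the endoplasmic reticulum 9 of 37 genes were higher and 2 lower (median 0.18), or 4 and 3 with the length trend removed (median 0.08). The translocon subunit Sec61g had 101, 531 and 349 FPKM (2.38), and the secreted stress protein Manf 45.7, 131 and 178 FPKM (1.49). Against these, the stress sensor Ern1 had 6.99, 0.541 and 3.99 FPKM (-2.37) and the chaperone Hyou1 20.9, 5.43 and 32.5 FPKM (-1.77). Ern1 and Hyou1 were thus lowest in the PM10 library, and the translocon was highest there.

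Enzymes that remove peroxides were higher more often than lower, with 12 of 36 members higher and 1 lower (median 0.62), or 6 and 2 with the length trend removed (median 0.33). Gpx4, which reduces lipid peroxides in membranes, stood at 404 (control), 2129 (PM10) and 808 FPKM (OVA+PM10) (log2 ratio 2.40, or 1.33 with the length trend removed). Peroxiredoxin 1 (Prdx1) had 242, 846 and 382 FPKM (1.80, or 1.55) and the cytosolic superoxide dismutase Sod1 651, 1731 and 1111 FPKM (1.41, or 1.53). The extracellular form Sod3, an enzyme of the vessel wall and matrix, was the lower member, with 107, 31.8 and 128 FPKM (-1.72). Slc7a11, the cystine importer that supplies glutathione synthesis, was higher from a low level, at 1.11, 3.81 and 3.12 FPKM (1.19, or 2.00). Nqo1, a widely used target gene of the NRF2 factor, had 8.08, 4.25 and 5.39 FPKM (-0.79).

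Conjugating and carbonyl detoxifying enzymes went the other way. Of 47 compared, 3 were higher and 11 lower (median -0.05), and after removal of the length trend 1 was higher and 17 lower, against 7.68% and 11.2% of all genes (median -0.64). Fmo2, the main flavin monooxygenase of lung (chromosome 1, 162874317 to 162898726), stood at 174 (control), 34.8 (PM10) and 53.8 FPKM (OVA+PM10) (log2 ratio -2.28). The class IV alcohol dehydrogenase Adh7, which also oxidises retinol, had 14.9, 0.145 and 11.3 FPKM (-3.80). The sulfotransferase Sult1d1 had 7.30, 0.311 and 4.54 FPKM (-2.66). Adh7 and Sult1d1 were thus nearly at 0 only in the PM10 library among the 3, and Fmo2 was lower in both particle libraries. For the glucuronosyltransferase Ugt1a6a, which shares exons with its neighbours, the ratio of -2.82 (9.43 and 0.475 FPKM) stood beside one of 1.71 for Ugt1a6b (4.88 and 18.3 FPKM). Summed, the pair had 14.3 and 18.7 FPKM (0.37), so that the lower value of Ugt1a6a is uncertain. In the same way Gstp2 was lower (12.9 and 3.88 FPKM), but the sum of Gstp1 and Gstp2 was 111 and 98.7 FPKM.

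Cytochrome P450 enzymes had 5 of 23 members higher and 4 lower (median 0.03), or 2 and 4 with the length trend removed (median -0.24). Cyp2e1, which oxidises small solvents, had 19.6, 3.60 and 3.89 FPKM (log2 ratio -2.16) and Cyp2a5, a coumarin and nicotine oxidase, 35.3, 8.88 and 44.8 FPKM (-1.88). Cyp2f2, the main P450 of club cells, had 1300, 1060 and 1732 FPKM. The particle-inducible Cyp1a1 had 2.25, 7.21 and 2.19 FPKM (1.34), so that the OVA+PM10 library did not exceed the control library.

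The highest P450 ratio belonged to the retinoid pathway. Retinol is oxidised in 2 steps, first to retinaldehyde and then, by enzymes that include ALDH1A2, to retinoic acid. DHRS3 returns retinaldehyde to retinol, and CYP26B1 clears retinoic acid. Cyp26b1 (chromosome 6, 84571414 to 84593908) stood at 4.90 (control), 26.1 (PM10) and 3.57 FPKM (OVA+PM10), a log2 ratio of 2.20 (2.43 with the length trend removed). Dhrs3 (chromosome 4, 144892827 to 144928209) had 49.9, 200 and 55.4 FPKM (1.98, or 1.77). Both genes thus shared 1 pattern, high in the PM10 library and near the control level in the OVA+PM10 library. Genes on the side of synthesis and transfer were lower: Aldh1a2 had 10.6, 0.958 and 4.37 FPKM (-2.57), the retinol dehydrogenase Dhrs9 5.07, 0.104 and 0.719 FPKM (-2.46) and the retinoic acid carrier Crabp2 10.2, 0.295 and 0.429 FPKM (-3.11). Aldh1a2 is also a gene of mesothelium, and Dhrs9 and Crabp2 are found in stratified squamous epithelium, whose markers were lower in the PM10 library (8 of 15 lymphatic and mesothelial genes and 27 of 28 squamous genes). The retinoic acid receptor gene Rarb had 2.70 and 2.96 FPKM.

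Beside the retinoid genes, the same list held enzymes of prostaglandins, leukotrienes and arginine. Of its 39 members 6 were higher and 7 lower (median 0.55), or 15.4% and 17.9%, against 13.6% and 13.9% of all genes. Prostacyclin synthase, Ptgis, had 47.2, 97.7 and 43.8 FPKM (log2 ratio 1.03), and Ptgir, the receptor of prostacyclin, 1.47, 7.52 and 5.98 FPKM (1.78). Alox15, the 12/15-lipoxygenase, had 19.8, 0.216 and 26.8 FPKM (-4.09) and the leukotriene-forming Alox5 7.75, 2.28 and 7.68 FPKM (-1.41). The lipoxygenases were thus low in the PM10 library alone among the 3. The arginase gene Arg1 had 5.12, 1.5 and 48.8 FPKM (-1.29).

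Several output genes of the clock were lower as measured. The circadian clock is a loop in which CLOCK and BMAL1 (gene Arntl) drive genes through E-boxes, among them Per1, the repressor Nr1d1 and the output factors Dbp, Tef and Hlf. Of 21 clock genes 1 was higher and 6 were lower (median -0.73), and after removal of the length trend 1 and 3 (median -0.51). Dbp (chromosome 7, 45705088 to 45710203) stood at 55.1 (control), 15.3 (PM10) and 38.8 FPKM (OVA+PM10) (log2 ratio -1.78, or -2.24). Nr1d1 (chromosome 11, 98767932 to 98775333) had 62.3, 18.5 and 32.2 FPKM (-1.70, or -1.83). Tef had 44.2, 19.5 and 26.4 FPKM (-1.14, or -0.91) and Hlf 6.21, 1.75 and 2.73 FPKM (-1.39, or -0.91). In these 4 genes the control library was the highest and the PM10 library the lowest. Per1 had 16.8, 7.45 and 6.34 FPKM (-1.07, or -0.79). With the length trend removed, Tef, Hlf and Per1 were thus within 2-fold, and Dbp and Nr1d1 were not. Bhlhe41, a repressor that competes for E-boxes, was the higher member, with 3.20, 9.14 and 3.07 FPKM (1.27), and Arntl itself had 2.30, 2.62 and 1.71 FPKM (0.14). The time of day at which each group was sampled is not known here and cannot be told apart from the exposure.

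Of 16 clock genes with a RefSeq promoter, 5 held CACGTG, and 1 of these was higher and 2 were lower. Per1 and Bhlhe41, which lay in opposite directions, both hold it, 166 and 153 bases before the transcript start. Their promoters are shown for this contrast, at chr11:69098699-69098998 (plus strand, the more upstream of the 2 Per1 starts listed) and chr6:145865371-145865670 (minus strand), GRCm38.p6, with CACGTG in capitals. The promoter at the other Per1 start does not hold CACGTG, and which start was used was not tested.
Per1: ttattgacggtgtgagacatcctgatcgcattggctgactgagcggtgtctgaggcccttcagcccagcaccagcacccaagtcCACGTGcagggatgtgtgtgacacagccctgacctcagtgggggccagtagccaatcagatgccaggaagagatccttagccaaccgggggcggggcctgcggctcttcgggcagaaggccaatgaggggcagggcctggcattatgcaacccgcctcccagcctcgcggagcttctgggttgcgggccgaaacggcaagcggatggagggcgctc
Bhlhe41: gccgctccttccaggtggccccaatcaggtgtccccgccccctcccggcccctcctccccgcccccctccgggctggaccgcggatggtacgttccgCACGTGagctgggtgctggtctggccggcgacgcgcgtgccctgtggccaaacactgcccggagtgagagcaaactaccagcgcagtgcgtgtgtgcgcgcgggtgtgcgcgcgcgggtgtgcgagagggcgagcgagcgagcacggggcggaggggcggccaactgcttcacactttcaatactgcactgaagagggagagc

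Genes that respond to glucocorticoid hormones had 1 of 29 members higher and 8 lower (median -0.53), or 1 and 8 with the length trend removed (median -0.49). Klf9, a hormone-induced repressor that also cycles with the clock (chromosome 19, 23141226 to 23168134), stood at 55.7 (control), 4.96 (PM10) and 20.8 FPKM (OVA+PM10) (log2 ratio -3.25). Zbtb16, a strongly hormone-dependent zinc finger factor, had 13.1, 1.62 and 2.56 FPKM (-2.43), and the glycosyltransferase Galnt15 7.38, 0.127 and 1.71 FPKM (-2.89). The kinase that shuts glucose oxidation, Pdk4, had 9.87, 2.26 and 0.921 FPKM (-1.74). All of them were lower in both particle libraries than in the control library. The hormone receptor Nr3c1 had 37.7, 20.2 and 17.5 FPKM (-0.87), the co-chaperone Fkbp5 8.55, 4.49 and 5.94 FPKM (-0.80) and the leucine zipper gene Tsc22d3 120, 98.7 and 46.1 FPKM (-0.28), so that some of the most used target genes stayed within 2-fold. The higher member was Lcn2, an iron-binding acute phase protein. Pdk4 and Zbtb16 are also expressed in muscle and fat, whose part was not tested.

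**Figure D4:**
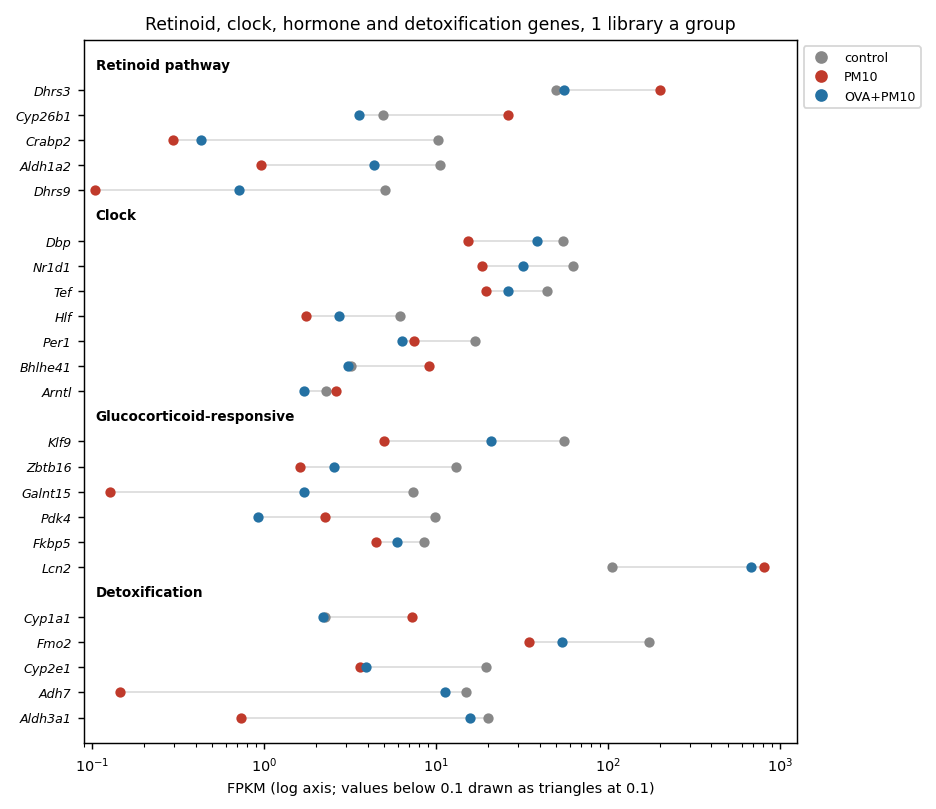
FPKM (log axis) of retinoid, clock, glucocorticoid-responsive and detoxification genes in each of the 3 libraries, 1 point per library. Dhrs3, Cyp26b1, Bhlhe41 and Cyp1a1 are high in the PM10 library only, while Dbp, Nr1d1, Klf9 and Fmo2 run from control (highest) over OVA+PM10 to PM10 (lowest).

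Immediate early genes, which respond to handling and stimulation within minutes, had 3 of 30 members higher and 4 lower (median -0.25). The shares were 10% and 13.3%, against 13.6% and 13.9% of all genes. Atf3 had 3.08 and 12.0 FPKM in the control and PM10 libraries (log2 ratio 1.67) and the shear-stress factor Klf2 65.9 and 149 FPKM (1.16). Fos (9.68 and 5.48 FPKM) and Egr1 (6.18 and 3.44 FPKM) stayed within 2-fold. Dusp5, a phosphatase of the ERK kinases, had a control value of 6.05 FPKM and a listed 0 under PM10.

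Surfactant and type 2 cell genes had 8 of 31 members higher and 3 lower (median 0.32), or 6 and 2 with the length trend removed (median 0.03). The collectin Sftpd, which opsonises particles and microbes, stood at 588 (control), 2228 (PM10) and 1200 FPKM (OVA+PM10) (log2 ratio 1.92, or 1.43). The secreted Sfta2 had 49.1, 299 and 96.9 FPKM (2.58, or 1.26) and the membrane mucin Muc1 53.7, 198 and 146 FPKM (1.86, or 1.61). Genes of surfactant lipid were lower: Lpcat1, which makes the saturated phosphatidylcholine of surfactant (chromosome 13, 73467197 to 73516422), had 78.7, 10.8 and 39.5 FPKM (-2.76), and Abca3, which pumps it into lamellar bodies, 42.3, 14.3 and 37.6 FPKM (-1.5, or -0.93). The hydrophobic Sftpb had 1383, 1279 and 895 FPKM. Sftpd and Muc1 thus lay on the other side of the median gene from Lpcat1 and Abca3.

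Type 1 cell genes had 1 of 25 members higher and 10 lower (median -0.58), or none and 6 with the length trend removed (median -0.42). The type IV collagen chains of their basement membrane, Col4a3 (16.4 and 3.21 FPKM, log2 ratio -2.05) and Col4a4 (9.96 and 1.24 FPKM, -2.29), and the proteoglycan gene Spock2 (58.3 and 11.4 FPKM, -2.25) were lower. Pdpn, a surface glycoprotein of type 1 cells, was the one higher as measured, at 49.2 and 108 FPKM (1.11, or 0.64). The receptor gene Ager and the junction gene Cldn18 (167 and 199 FPKM) stayed within 2-fold.

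Of 25 epithelial channels and water pores 2 were higher and 8 lower (median -0.46). Scnn1a, the alpha subunit of the sodium channel that drains alveolar fluid, stood at 100 (control), 26.6 (PM10) and 63.2 FPKM (OVA+PM10) (log2 ratio -1.87), and the gamma subunit Scnn1g 33.7, 15.2 and 12.2 FPKM (-1.10). The anion exchanger Slc26a4 had 0.374, 6.83 and 43.8 FPKM (2.51), high in both particle libraries. Among 31 junction genes 3 were higher and 8 lower (median -0.29), or none and 7 with the length trend removed (median -0.27). The desmosome genes Dsp (41.4 and 5.43 FPKM, -2.72) and Dsc2 (10.5 and 0.048 FPKM, -3.46) were the lowest, and squamous epithelium, rich in desmosomes, was lower in the PM10 library too. The catenin Ctnnd1, which holds cadherins at the membrane of epithelium and endothelium, had 102 and 29.5 FPKM (-1.75) and occludin, Ocln, 16.5 and 4.83 FPKM (-1.59). The claudin Cldn7 was at 27.5 and 85.2 FPKM (1.59, or 0.82).

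Airway secretions had 8 of 25 members higher and 7 lower (median 0.22), or 3 and 8 with the length trend removed (median -0.24). Pigr, the receptor that carries IgA into the airway (chromosome 1, 130826684 to 130852249), stood at 18.9 (control), 124 (PM10) and 342 FPKM (OVA+PM10) (log2 ratio 2.65, or 2.67). Secreted proteins of the upper airway were lower: Bpifa1, an antimicrobial surface protein, had 283, 5.08 and 18.7 FPKM (-5.54). Motile cilium genes had 18 of 41 members higher and 1 lower (median 0.68), or 8 and 1 with the length trend removed (median 0.37). Dynlrb2, a dynein light chain, had 42.0, 250 and 201 FPKM (2.54, or 1.18), while Foxj1, the regulator that defines ciliated cells, had 13.6, 16.5 and 70.6 FPKM (0.26).

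Endothelial genes showed 5 of 45 members higher and 8 lower (median -0.09, length-removed 0.05). These shares were 11.1% and 17.8%, against 13.6% and 13.9% of all genes. Gpihbp1, which anchors lipoprotein lipase on capillaries (chromosome 15, 75596628 to 75599481), stood at 183 (control), 634 (PM10) and 170 FPKM (OVA+PM10) (log2 ratio 1.79, or 1.23). The claudin Cldn5 of the endothelial barrier had 265, 838 and 221 FPKM (1.66, or 0.92), and the capillary sialomucin Emcn 29.5, 71.3 and 27.7 FPKM (1.24, or 1.31). Growth factor receptors were lower: Kdr, the main VEGF receptor (chromosome 5, 75932827 to 75978458), had 75.9, 21.2 and 26.5 FPKM (-1.79, or -1.30) and Flt1 30.1, 6.49 and 6.88 FPKM (-2.05, or -1.43). So were the arterial guidance gene Sema3g (51.4, 11.9 and 14.8 FPKM, -2.02) and VE-cadherin, Cdh5 (265, 94.9 and 78.8 FPKM, -1.47). Kdr, Flt1, Sema3g and Cdh5 were low in both particle libraries, and Gpihbp1, Cldn5 and Emcn were high in the PM10 library alone. Members of the list thus lay on both sides, with no common direction. Pecam1 (308, 221 and 139 FPKM) and Vwf (35.3, 33.9 and 25.5 FPKM) stayed within 2-fold of control in the PM10 library. The ligand Vegfa, made mostly by type 1 cells in lung, had 110, 49.7 and 29.1 FPKM (-1.12).

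Lymphatic and mesothelial genes had the lowest median of the 51 gene lists (marker lists of other tissues not counted), with 1 of 15 members higher and 8 lower (-1.01, or -1.35 with 9 lower after removal of the length trend). The mesothelial genes Upk3b (17.4, 0.149 FPKM and listed at 0 in control, PM10 and OVA+PM10), Msln (17.5, 3.71 and 4.13 FPKM) and Lrrn4 (3.62, 0.125 and 0.018 FPKM) were lower in both particle libraries. Mmrn1, a lymphatic gene, had 5.62, 1.18 and 3.58 FPKM. How much pleura each piece of tissue held is not known here.

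Smooth muscle genes had 2 of 30 members higher and 14 lower (median -0.96), or 1 and 15 with the length trend removed (median -0.89). The tropomyosin Tpm2 stood at 196 (control), 28.4 (PM10) and 68.1 FPKM (OVA+PM10) (log2 ratio -2.74), desmin, Des, 199, 39.6 and 71.4 FPKM (-2.30) and the smooth muscle actin Acta2 82.8, 32.0 and 202 FPKM (-1.35). Tpm2, Des and the calsequestrin gene Casq2 (5.76 and 0.560 FPKM, -2.11) are also genes of striated muscle, whose markers were higher in the control library. The part of these tissues in the values was not tested. Acta2 and the smooth muscle myosin Myh11 (42.1, 8.37 and 68.7 FPKM, -2.20) were lower in the PM10 library but not in the OVA+PM10 library. Receptors of airway and vessel tone had 3 of 31 members higher and 4 lower (median -0.24). These shares, 9.68% and 12.9%, did not exceed the 13.6% and 13.9% of all genes. The bradykinin receptor Bdkrb2 had 6.61, 1.43 and 1.84 FPKM (-1.65), and the muscarinic receptor Chrm2 4.49 (control) and 8.0 FPKM (OVA+PM10) with a listed 0 under PM10. Ramp1 (7.40, 17.9 and 12.0 FPKM, 1.17) and Ramp3 (3.60, 13.4 and 10.2 FPKM, 1.64), partners of the receptors for calcitonin gene-related peptide and adrenomedullin, were on the higher side with Ptgir.

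Most collagen genes past 2-fold were lower. Of 35 collagen genes 1 was higher and 13 lower (median -0.81, or -0.28 with 9 lower after removal of the length trend). Col1a1, the main fibrillar chain, stood at 52.5 (control), 13.1 (PM10) and 135 FPKM (OVA+PM10) (log2 ratio -1.93), and Col6a1, of the microfibrils around cells, 58.6, 13.4 and 94.4 FPKM (-2.04). The list of elastic fibre and small proteoglycan genes had 4 of 30 members higher and 7 lower (median -0.32), and elastic fibre genes were found on both sides. Elastin, Eln (chromosome 5, 134702593 to 134747323), had 37.9, 82.0 and 80.3 FPKM (1.09, or 1.12), its microfibril partner Mfap4 292, 786 and 357 FPKM (1.43, or 0.95), and the assembly protein gene Efemp2 18.9, 40.1 and 26.5 FPKM (1.05, or 0.90). The fibulin Fbln1, which binds elastic fibres, had 18.2, 2.13 and 9.46 FPKM (-2.61). The collagen-binding proteoglycan Dcn (chromosome 10, 97479609 to 97518143) had 246, 8.40 and 91.8 FPKM (-4.72) and the insulin-like growth factor carrier Igfbp5, on the matricellular list (3 of 34 higher, 12 lower, median -0.45), 89.5, 8.70 and 38.4 FPKM (-3.22). Collagen chains and small proteoglycans are also made by connective tissue of muscle, skin and fat, and their part in the control values was not tested.

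Integrins and laminins had 2 of 36 members higher and 11 lower (median -0.57), which became 2 and 2 with the length trend removed (median -0.13). Itga9, a receptor for tenascin and osteopontin (chromosome 9, 118606690 to 118901003), had 9.25, 30.8 and 5.51 FPKM (log2 ratio 1.63, or 2.28). Among metalloproteinases and their inhibitors 2 of 26 were higher and 4 lower (median -0.20). The shares were 7.69% and 15.4%, against 13.6% and 13.9% of all genes. The macrophage elastase Mmp12 had 1.30, 136 and 90.9 FPKM (5.89), and the metalloproteinase inhibitor Timp1 3.98, 16.9 and 43.1 FPKM (1.85, or 0.64), while the epithelial Mmp28 had 8.12, 0.758 and 1.62 FPKM (-2.38) and the membrane-anchored inhibitor Reck 12.4, 4.34 and 3.63 FPKM (-1.33).

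**Figure D5:**
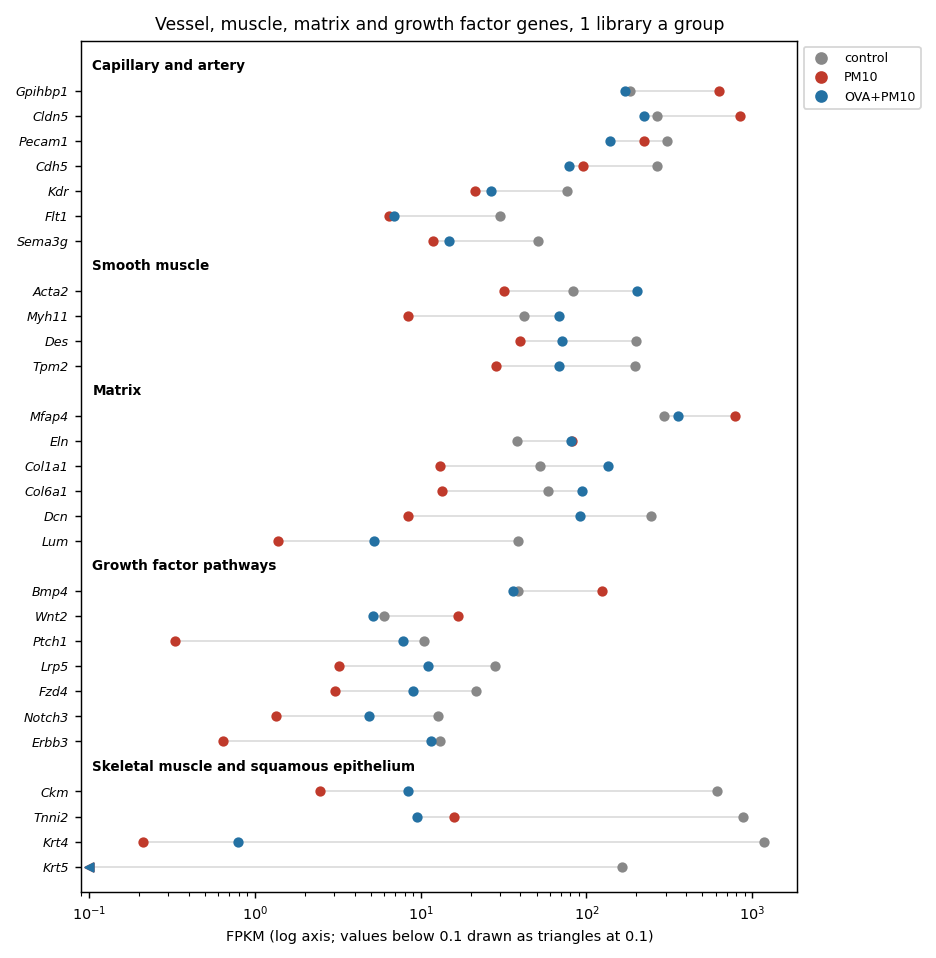
FPKM (log axis) of vessel, smooth muscle, matrix and growth factor genes in each of the 3 libraries, 1 point per library, above 4 marker genes of skeletal muscle and squamous epithelium. Gpihbp1, Cldn5, Mfap4, Bmp4 and Wnt2 are highest in the PM10 library, while Kdr, Flt1, Dcn, Ptch1 and Erbb3 are highest in the control library, as are the 4 marker genes, of which Krt5 was listed at 0 in the PM10 library.

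Growth factor pathways had more members lower than higher, and Bmp4 and Wnt2 were exceptions. Of 45 genes of the TGF-beta and BMP pathway 4 were higher and 14 lower (median -0.62, or -0.31 with the length trend removed). Bmp4 (chromosome 14, 46383520 to 46390669) stood at 38.7 (control), 123 (PM10) and 35.9 FPKM (OVA+PM10) (log2 ratio 1.65, or 1.23). Its target genes Id1 (91.4, 247 and 75.1 FPKM, 1.42, or 0.50) and Id3 (108, 263 and 85.7 FPKM, 1.28, or 0.45) followed the same order of libraries. The receptors Acvr1b (9.48 and 1.20 FPKM, -2.26) and Tgfbr3 (27.0 and 9.4 FPKM, -1.43) and the latent TGF-beta binding protein Ltbp4 (75.5, 14.3 and 31.4 FPKM, -2.32) were lower. In the WNT and Hedgehog pathway 1 of 41 members was higher and 14 lower (median -0.59, or -0.35 with the same counts after removal of the length trend). The higher one was the mesenchymal ligand Wnt2, with 5.97, 16.8 and 5.17 FPKM (1.35, or 1.1). The WNT co-receptors Lrp5 (28.0, 3.20 and 11 FPKM, -2.79) and Lrp6 (15.7, 4.10 and 7.12 FPKM, -1.71) and the receptor Fzd4 (21.7, 3.05 and 9.05 FPKM, -2.49) were lower. So was Ptch1, the Hedgehog receptor and a target gene of its own pathway, at 10.5, 0.331 and 7.84 FPKM (-3.11). In the FGF, PDGF, VEGF, EGF and Notch pathways none of 47 was higher and 17 were lower (median -0.52), or 1 and 11 with the length trend removed (median -0.37). The lowest were the neuregulin receptor Erbb3 (13.2, 0.641 and 11.5 FPKM, -3.11), the mural cell receptor Notch3 (12.7, 1.34 and 4.86 FPKM, -2.54) and hepatocyte growth factor, Hgf (8.87, 1.54 and 4.42 FPKM, -1.96).

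Axon guidance genes, which in lung are expressed by vessels and mesenchyme as well as nerves, had none of 45 higher and 17 lower (median -0.71, or -0.26 with 1 higher and 10 lower after removal of the length trend). The netrin Ntn4 of vessel basement membranes had 31.3, 5.74 and 8.45 FPKM (log2 ratio -2.26), and the repellent ligand Slit3 13.1, 2.71 and 5.38 FPKM (-1.92). Transcription factors of lung identity stayed mostly within 2-fold, with 3 of 47 higher and 4 lower (median -0.10). Foxa2, of the alveolar and airway epithelium, had 13.4, 36.2 and 17.3 FPKM (1.37) and Tcf21, of lipid-storing fibroblasts, 79.1, 160 and 54.7 FPKM (1.00, or 0.52), whereas Prrx1, of connective tissue fibroblasts, had 6.35, 1.47 and 3.62 FPKM (-1.57). Cell cycle genes had 8 of 45 members higher and 1 lower (median 0.09), or 2 and 2 with the length trend removed (median 0.08). The proliferation markers Mki67 (3.47, 3.66 and 16.8 FPKM) and Top2a (3.99, 2.98 and 13.3 FPKM) were near the control value in the PM10 library, and the lower member was the cyclin Ccnd2 (35.7, 6.68 and 29.0 FPKM, -2.26).

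Small and nuclear RNAs had the largest median of the 51 gene lists. Of 18 measured, 11 were higher and 1 lower (median 1.97, or 1.33 with the length trend removed). The ribosomal RNA precursor Rn45s, which has no poly(A) tail, was listed at 0 in control and OVA+PM10 and stood at 8570 FPKM in PM10, most of the list's summed 9472 FPKM there. In RNA of this kind the PM10 library thus stood apart from the other two. Rmrp, the RNA of RNase MRP, had 17.8, 212 and 41.9 FPKM (log2 ratio 3.50). Host transcripts of small nucleolar RNAs that carry poly(A) tails were higher too, with Gas5 at 7.33, 39.3 and 9.23 FPKM (2.27, or 2.03) and Snhg8 at 19.1, 151 and 32.0 FPKM (2.91, or 1.62). Outside the lists, 8 of the 15 highest ratios belonged to small nucleolar RNA genes, from Snord22, listed at 0 in the control library and at 717 and 209 FPKM in the PM10 and OVA+PM10 libraries, to Snora23, listed at 0 and at 11.9 FPKM. The nuclear RNA Malat1 (82.9, 50.5 and 52.4 FPKM) and the X-inactivation RNA Xist (11.8, 7.73 and 14.2 FPKM), both long, stayed within 2-fold. The imprinted RNA H19, abundant in muscle, had 197, 0.653 and 1.92 FPKM (-6.91).

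The other highest ratios outside the lists belonged to Atp6v0c-ps2, the chemokine genes Ccl17 and Cxcl3, the lectin Clec4d, the acute phase gene Saa3, AA467197 (0.713, 48.4 and 39.0 FPKM), a small mitochondrial protein gene also known as Nmes1, and Ctcfl (0.172, 14.3 and 0.896 FPKM), a testis paralog of the insulator factor CTCF. The lowest ratio was that of Chil4, a chitinase-like protein gene with 3160, 0.104 and 602 FPKM (-11.48). Its near-identical copy Chil3 was higher (93.4, 641 and 2106 FPKM, 2.76), and the pair summed to 3253, 641 and 2707 FPKM (-2.34). The others of the 15 lowest were mostly genes of cornified or stratified epithelium, such as Sprr2a3 (control 1125 FPKM, PM10 listed at 0, OVA+PM10 89.8 FPKM), Serpinb3c (546 FPKM in the control library and listed at 0 in both others) and Lce3a (257 FPKM, likewise). Glycam1, an adhesion ligand of lymph node vessels and mammary gland, had a control value of 134 FPKM, a listed 0 under PM10 and 0.711 FPKM under OVA+PM10. Oaz1-ps, a processed copy of the ornithine decarboxylase antizyme gene Oaz1, had 176 FPKM and was listed at 0, but with Oaz1 (242 and 808 FPKM) the pair summed to 417 and 808 FPKM, so that the ratio of the copy is uncertain.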

How the data were processed

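RNA of mouse lung was sequenced in 3 libraries (control, PM10 and OVA+PM10), 1 per group, from Trizol extracts with a directional kit, per the labels' protocols. The authors deposited FPKM values per gene symbol. TopHat and the mm10 build are named, per the submitters' processing notes, while the sources used here do not give the counter, annotation, use of strand or treatment of reads shared by copies. All libraries share these steps.

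Values were joined by symbol, and the log2 ratio of FPKM + 1 was computed for genes at 1 FPKM or more in either library, with python 3.11.15, pandas 2.3.3 and numpy 2.4.6 (figures with matplotlib 3.10.9). Depth was estimated from the smallest steps of low FPKM values. Transcript lengths and gene positions came from GENCODE M21 on GRCm38, matched for 22156 genes by symbol and 643 by synonym, with 384 unmatched. The length trend was a running median over 501 genes. The computation was tested on simulated data. Alternatives changed the pseudocount, the filter, the scaling, the threshold and the length correction.

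The members, the 51 gene lists and the 11 marker lists were chosen with earlier results of these data known. Genes were named by a rule: in each list, at most 6 members of largest absolute ratio among those at 5 FPKM or more, the 15 highest and 15 lowest genes on no list at 10 FPKM or more, the 2 most abundant members of lists with few differences, and a set of reference genes. Outside the rule, and chosen after their values were seen, were Alox5, Arg1, Atp6v0c, Atp6v1a, Blvra, Blvrb, Cd63, Chil3, Chrm2, Ctsd, Dcstamp, Dhrs3, Efemp2, Emcn, Fabp4, Fmo2, Gas5, Gstp1, Gstp2, Hspa8, Hspb3, Id3, Krt5, Lrrn4, Mfap4, Npc2, Nr1h3, Nr3c1, Oaz1, Plin2, Prpf8, Ptgis, Rarb, Scnn1g, Slc7a11, Snhg8, Tsc22d3, Ugt1a6b and Vegfa.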

Additional observations from a re-analysis of the deposited data

How the results depend on the processing

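No paired analysis was possible because each group is 1 library, and for the same reason no library could be left out. The number of genes past 2-fold was 3776 (1869 higher and 1907 lower). It was 2016 with 749 lower at a pseudocount of 5 FPKM, 7330 (251 higher and 7079 lower) with both libraries scaled to the same sum, and 7312 (256 and 7056) with other-tissue markers, red cell markers and Rn45s left out before that scaling. Removal of the length trend left 1045 genes higher. Thresholds of 4-fold and 1.5-fold gave 828 (303 higher and 525 lower) and 7096 (3606 and 3490). Of the 51 lists, 7 had a median past 2-fold, against 29 under either same-sum scaling and 2 with the length trend removed. Under same-sum scaling, and with the markers left out first, 22 of the 27 list medians above 0 turned below 0, among them those of the V-ATPase (-0.30 in both), lysosomal proteins (-0.52 in both), foam cell lipid genes (-0.20 and -0.16), translation factors (-0.35 and -0.36), spliceosome (-0.62 in both) and peroxide defence (-0.61 in both). Of medians and named genes past 2-fold, the sign turned for the proteasome median (-0.155 in both), Dgat1 (-0.0787 and -0.0793), Efemp2 (-0.15 in both), Eln (-0.13 in both), Hspa8 (-0.20 in both), Klf2 (-0.0663 and -0.0667), Pdpn (-0.11 in both), Ptgis (-0.19 in both) and Tcf21 (-0.23 in both). Without the added 1 FPKM, scaling to the same sum shifts every log2 ratio by the same -1.24. With the added 1 FPKM the shift is smaller for genes of low FPKM. Its median is then -1.11, or -1.12 with the markers left out first. With the length trend removed, 30 of 198 named genes past 2-fold came within 2-fold and none changed sign. Differences near 1 FPKM rest on few reads, most of all in the PM10 library, the shallowest of the 3.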
